A study of Mus musculus with 384 samples.

Results

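Members of 2 ion channel families, 8 genes in all, were followed through single cells of the mouse retina: Hcn2, Hcn3 and Hcn4, which encode pore-forming subunits of the hyperpolarization-activated cyclic nucleotide-gated (HCN) channels, Scn1a, Scn2a, Scn3a and Scn8a, which encode alpha subunits of voltage-gated sodium channels, and Scn2b, which encodes an auxiliary beta subunit. They were taken by name as 8 of the 32813 genes in the tables. The cells came from 4 retinas of 2 mice at postnatal day 17. All of the mice carried Cre recombinase in the Kcng4 locus together with Thy1-stop-YFP Line#1, a reporter that Cre switches on, and the dissociated cells were sorted by fluorescence, 96 per retina, and sequenced after Smart-seq2 amplification of full-length cDNA. There was no treatment and no other genotype, and the Thy1 reporter shows only cells in which both Kcng4-driven Cre and the Thy1 cassette have been active. Retinas 1la and 1Ra belong to mouse 1 and 2la and 2Ra to mouse 2, with suffixes that the labels do not spell out.

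HCN channels open when a neuron hyperpolarizes and carry a depolarizing inward current, which shapes the time course of light responses in rods, cones and bipolar cells. Voltage-gated sodium channels open on depolarization and carry the upstroke of the action potential. Each has 1 large alpha subunit that forms the pore, and beta subunits that alter its gating and its place in the membrane. Most bipolar cells signal with graded potentials, although sodium currents and spikes are known from some bipolar types.

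Of 383 cells with values, 321 had at least 3000 genes at an expected count of 1 or more. Among these, 151 cells had Sox6, a transcription factor, at 20 TPM or more (a share of all transcripts of a cell, scaled for gene length) without Vsx1 or Ddit4l, 60 had Vsx1 alone, another transcription factor, and 59 had Ddit4l alone, a regulator of the growth kinase mTOR. They are called Sox6-only, Vsx1-only and Ddit4l-only cells. The lowest level inside and the highest outside the 20 TPM line were 20.8 and 18.7 TPM for Sox6, 31.01 and 15.8 for Vsx1 and 28.96 and 16.92 for Ddit4l. No marker was reached in 33 cells and several in 18. The groups held 33, 30, 46 and 42 Sox6-only cells in retinas 1la, 1Ra, 2la and 2Ra, 16, 18, 14 and 12 Vsx1-only cells, and 10, 19, 20 and 10 Ddit4l-only cells.

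Median totals were close between the groups, at 1067453 expected counts per Sox6-only, 1072603 per Vsx1-only and 1091485 per Ddit4l-only cell. Between retinas they ran from 759554 in 1Ra to 1258579 in 1la, and the median mitochondrial share was 4.26% and 4.88% in the Ra retinas against 2.06% and 2.14% in the la retinas. Each retina filled its own wells, so a retina and its set of wells cannot be told apart. Of 12 bipolar cell markers, 11, 11 and 9 were found in most Sox6-only, Vsx1-only and Ddit4l-only cells. Ganglion cells, which spike and are rich in sodium channels, are a class the Kcng4 line can also hold. Their 10 markers summed to 30.3 to 56.9 TPM over the retinas in Sox6-only, 10.8 to 26.03 in Vsx1-only and 16.6 to 46.1 in Ddit4l-only cells. The means of 7, 8 and 7 of these were under 1 TPM, among them Rbpms, Slc17a6, Nefm, Pou4f1, Pou4f2 and Isl2 in every group. Of the 10, only Thy1 was found in most cells of any group, namely the Sox6-only cells. Rod markers, 8 genes, summed to 1271 to 2831 TPM over the retinas in Sox6-only, 935 to 3881 in Vsx1-only and 707 to 2117 in Ddit4l-only cells. Amacrine markers, 8 genes, summed to 35.8 to 118, 14.8 to 51.9 and 45.5 to 327 TPM in the same order, with only Pax6 in most cells of any group and Tfap2b under 1 TPM in all. Horizontal cell markers, 5 genes, summed to 192 to 309, 170 to 316 and 252 to 562 TPM, with Calb1 and Sept4 in most cells and Lhx1 and Onecut1 under 1 TPM in every group. Müller glia markers, 8 genes, summed to 329.7 to 843, 247 to 2209 and 339 to 408 TPM, and cone markers, 7 genes, to 12.3 to 571, 22.3 to 207 and 89.3 to 128.6 TPM. Of the 3 groups, Ddit4l-only cells reached the highest amacrine and horizontal sums, and their part in the results on that group was not tested.

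Scn1a, Scn2a and Scn3a lie together on mouse chromosome 2 and are close copies of each other, which bears on how their reads can be assigned. In mm10 coordinates of the GENCODE annotation, Scn3a spans chr2:65457118-65567627 (minus strand), Scn2a chr2:65620771-65767447 (plus strand) and Scn1a chr2:66270778-66440840 (minus strand). Scn8a stands apart at chr15:100869858-101045938 (plus strand). Over whole transcripts, 11.9% of the 25-base words of Scn1a, 14.8% of those of Scn2a and 13.9% of those of Scn3a also occur in a relative, against 0.707% for Scn8a. Reads of these 3 genes can therefore have been shared out between them by the authors' estimates, and their levels are uncertain to that extent. The HCN genes are far less alike. The longest run common to Hcn2, Hcn3 and Hcn4 is 17 bases long and lies in the coding part of exon 2 of each, within the stretch shown here with 15 bases on either side and with capitals where Hcn2 and Hcn3 differ from Hcn4.
Hcn4: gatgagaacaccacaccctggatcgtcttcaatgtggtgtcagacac
Hcn2: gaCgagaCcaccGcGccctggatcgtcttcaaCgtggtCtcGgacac
Hcn3: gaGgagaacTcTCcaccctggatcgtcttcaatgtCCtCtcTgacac
These lie at chr9:58843957-58844003 (Hcn4, plus strand), chr10:79724467-79724513 (Hcn2, plus strand) and chr3:89152935-89152981 (Hcn3, minus strand). At most 0.533% of the 25-base words of Hcn2, Hcn3 or Hcn4 occur in another HCN gene. Hcn3 overlaps Pklr on the opposite strand, Scn1a and Scn3a each overlap a non-coding gene (Gm13630 and Gm13595), and Scn2b overlaps Gm10684. Without strand information reads there cannot be told apart, and the overlapping genes had 90, 95, 24 and 0 counts over all cells of the 3 groups.

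The question put to the channel genes was whether cells with Sox6, Vsx1 or Ddit4l, which mark different sets of sorted cells, differed in them. Hcn3 and Scn3a were at their highest levels in Ddit4l-only cells, Hcn4 was found in 19 Vsx1-only cells and in 1 cell of each other group, and Scn8a was present in most cells of all groups. None of the 8 genes passed the test between any pair of groups when cells were summed per mouse (edgeR's quasi-likelihood test, a call being a Benjamini-Hochberg adjusted p under 0.05 with at least a 2-fold difference, n = 2 mice). That test called few genes of any kind: 0 (0%) of 16646 genes between Sox6-only and Vsx1-only cells, 0 (0%) between Sox6-only and Ddit4l-only cells and 7 (0.0421%) between Vsx1-only and Ddit4l-only cells, while 1429, 1342 and 2141 genes had an unadjusted p under 0.05. Sums per retina called 117 (0.806%), 80 (0.551%) and 333 (2.3%) of 14508 genes and again none of the 8. DESeq2 on the mouse sums called 852, 760 and 1613 of the same 16646 genes and 1, 2 and 2 of the 8. The latter are named with their values in what follows.

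**Figure D1:**
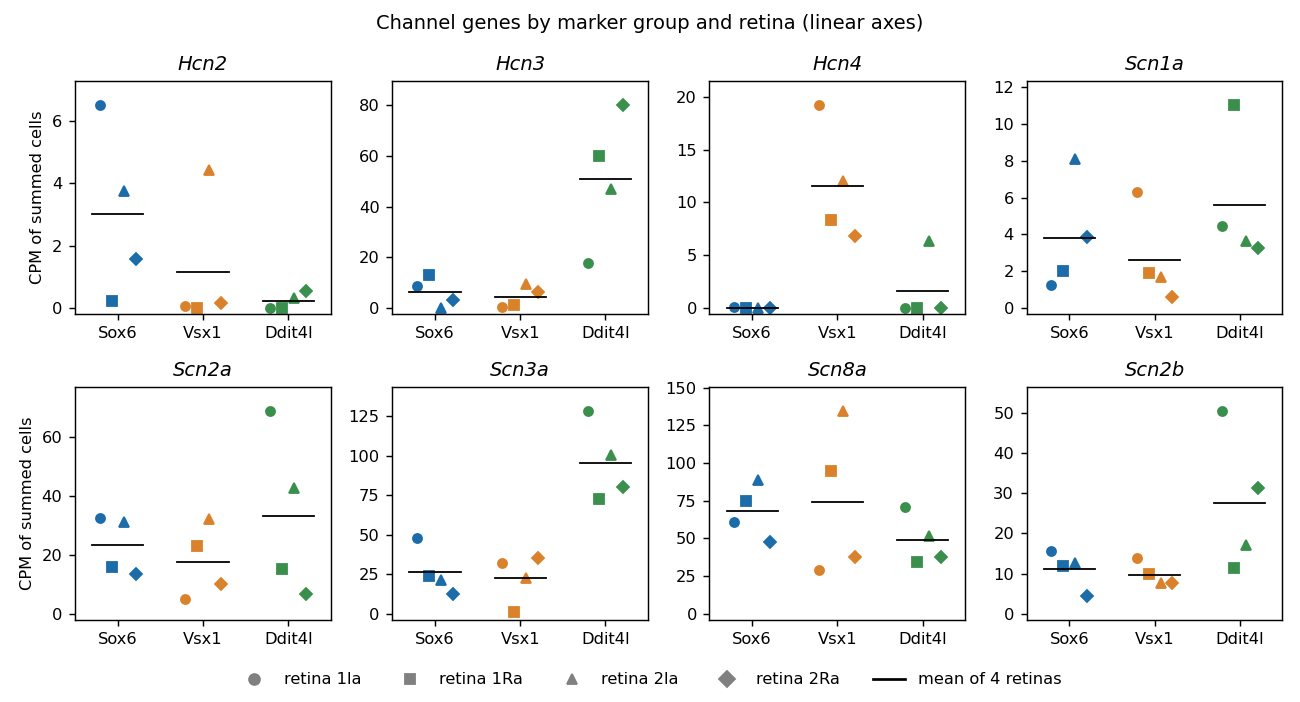
Level of each of the 8 channel genes in CPM (counts relative to the summed library, vertical linear axes of different scale) in cells summed per marker group (horizontal axis) and retina (symbols), with the mean of the 4 retinas as a line. Hcn3 and Scn3a in Ddit4l-only cells lie above both other groups in every retina, at 17.5 to 80.05 and 72.8 to 128 CPM, and Hcn4 is at 6.76 to 19.2 CPM in the Vsx1-only sums.

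Where every retina of 1 group lies above every retina of another, the groups are said not to overlap. Between Sox6-only and Vsx1-only cells this held for 1 of the 8 genes, Hcn4, against 8.09% of all genes tested. Between Sox6-only and Ddit4l-only cells it held for 2, Hcn3 and Scn3a, against 7% of genes, and between Vsx1-only and Ddit4l-only cells for 3, Hcn3, Hcn4 and Scn3a, against 8.31%. The comparisons share groups, so these counts are not independent. The median log2 fold change of the 8 genes was 0.41 for Sox6-only over Vsx1-only cells, -0.80 for Sox6-only over Ddit4l-only and -1.06 for Vsx1-only over Ddit4l-only cells, beside medians over all genes of 0.05, 0.08 and 0.01.

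Hcn4 encodes the slowly gating HCN subunit best known from the pacemaker of the heart. In Vsx1-only cells it was at 19.2, 8.33, 11.99 and 6.76 CPM in retinas 1la, 1Ra, 2la and 2Ra. In Sox6-only cells it was at 0.0239 CPM in 1la and at 0 in the other 3 retinas, where 3 counts would be 0.0558 to 0.132 CPM. In Ddit4l-only cells it was at 6.32 CPM in 2la and at 0 in the others. All retinas of the Vsx1-only group were thus above both other groups, by a small margin over retina 2la of the Ddit4l-only group.

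In numbers of cells, Hcn4 was detected (an expected count of 1 or more) in 19 of 60 Vsx1-only cells, or 31.7% (95% Clopper-Pearson interval 20.3% to 44.96%, counting error only, here and below). It was detected in 1 of 151 Sox6-only cells, or 0.662% (0.0170% to 3.63%), and in 1 of 59 Ddit4l-only cells, or 1.69% (0.0430% to 9.09%). By retina the Vsx1-only cells with Hcn4 were 7 of 16, 3 of 18, 4 of 14 and 5 of 12. The signal in Vsx1-only cells was 773 counts, of which 10 cells gave 90%. The Sox6-only cells held 1 count in all, and the 157 counts of the Ddit4l-only cells came from a single cell of retina 2la. Per total count, Vsx1-only cells held 1975 times as much Hcn4 as Sox6-only cells and 5.0 times as much as Ddit4l-only cells. The first ratio rests on the single count of the Sox6-only cells. Its 95% counting interval of 353 to 78104 takes every count as independent, and leaves out the spread between cells and between mice.

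The fitted log2 fold change of Hcn4 was -10.38 ± 3.59 (SE) for Sox6-only over Vsx1-only cells and did not pass (adjusted p = 0.552, edgeR on mouse sums, lower in 4 of 4 retinas). A fitted value this close to 0 counts depends on the prior count. DESeq2 gave an adjusted p of 0.00136 for the same sums, and the adjusted p ranged from 0.00136 to 0.839 over 16 alternatives. For Vsx1-only over Ddit4l-only cells it was 3.11 ± 3.06 (adjusted p = 0.744), 6.49 in sums per retina (adjusted p = 0.289) and 11.69 without retina 2la, the last also a value near 0 counts. For Sox6-only over Ddit4l-only cells it was -7.27 ± 3.94 (adjusted p = 0.715, DESeq2 0.0410), a value that turned to 1.77 without retina 2la, which holds the only Ddit4l-only cell with Hcn4.

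Hcn3, the family member with the least response to cyclic nucleotides, was spread the other way. In Ddit4l-only cells it was at 17.5, 59.8, 46.9 and 80.05 CPM in the 4 retinas. Sox6-only cells had 8.503, 13.03, 0.0182 and 2.98 CPM, and Vsx1-only cells 0.0513, 1.0501, 9.16 and 6.37 CPM. The Ddit4l-only values did not overlap with either group, while the other two overlapped with each other.

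Hcn3 was detected in 30 of 59 Ddit4l-only cells, or 50.8% (37.5% to 64.1%), and in 42.1% to 60% of them in each retina. It was detected in 13 of 151 Sox6-only cells, or 8.61% (4.66% to 14.3%), and in 8 of 60 Vsx1-only cells, or 13.3% (5.94% to 24.6%). Its counts were also more widely shared in Ddit4l-only cells, where 13 cells gave 90% of them. In each of the other groups 3 cells did so. With cells thinned to 200000 counts the shares were 42.4%, 3.97% and 10%.

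The fold of Hcn3 in Ddit4l-only over Sox6-only cells was 7.40, as a log2 fold change of -2.89 ± 1.78 (SE) for Sox6-only over Ddit4l-only, and it did not pass (adjusted p = 0.743, edgeR). Over Vsx1-only cells it was 13.4-fold, with a log2 fold change of -3.74 ± 1.83 for Vsx1-only over Ddit4l-only (adjusted p = 0.487, edgeR). DESeq2 called the latter (adjusted p = 0.0420). The direction was the same in all 16 alternatives of both comparisons, with an adjusted p from 0.230 to 0.921 and from 0.0420 to 0.746.

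Hcn2, a subunit of fast cyclic AMP-sensitive channels in many neurons, was low in all groups. Sox6-only cells had 6.52, 0.225, 3.77 and 1.56 CPM in the 4 retinas, Vsx1-only cells 0.0513, 0, 4.43 and 0.159 CPM, and Ddit4l-only cells 0, 0, 0.322 and 0.543 CPM. The groups overlapped in all comparisons. It was detected in 17 Sox6-only, 3 Vsx1-only and 3 Ddit4l-only cells, and 1 cell gave 96.2% of the 78 counts of the Vsx1-only group. The log2 fold change of Sox6-only cells was 4.36 ± 2.71 (SE) over Vsx1-only and 6.88 ± 2.78 over Ddit4l-only cells, and neither passed (adjusted p = 0.776 and 0.633, edgeR). Without retina 1la these were 1.57 and 3.94, without 2la 5.88 and 4.87, and without the mouse as a block 1.47 and 4.18. With so few counts in the other groups the fitted values depend on the prior count.

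At least 1 of Hcn2, Hcn3 and Hcn4 was detected in 29 Sox6-only cells (19.2%), 26 Vsx1-only cells (43.3%) and 33 Ddit4l-only cells (55.9%). More than 1 of them in the same cell was rare, in 2, 4 and 1 cells.

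**Figure D2:**
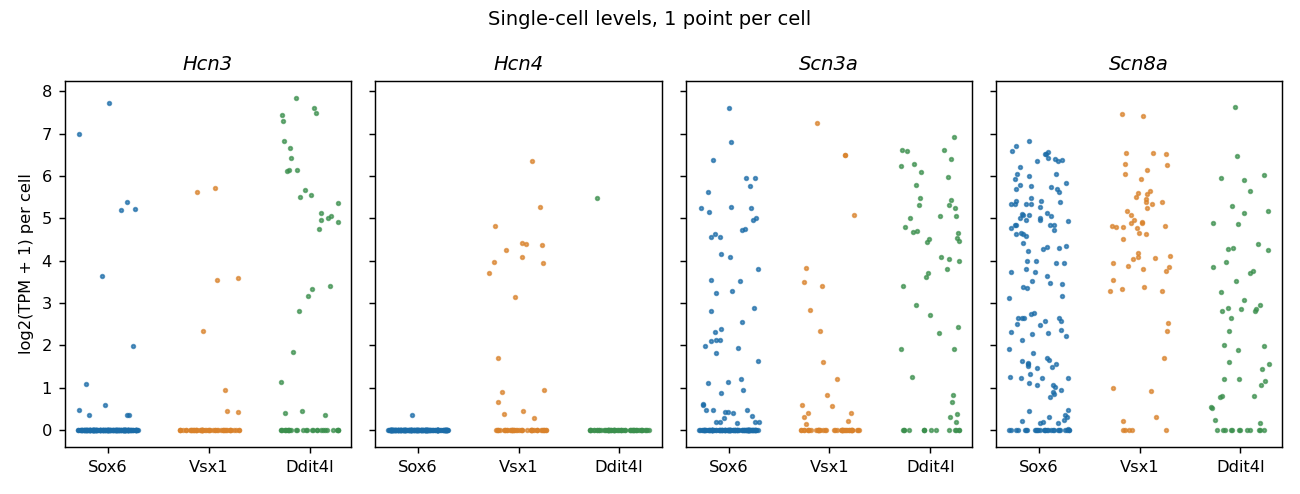
Level of Hcn3, Hcn4, Scn3a and Scn8a in single cells as log2(TPM + 1) (vertical axis) by marker group (horizontal axis), with 1 point per cell spread sideways at random. Hcn4 is above 0 in 19 Vsx1-only cells and in 1 cell of each other group, and Scn8a is spread over a wide range in all 3 groups.

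Scn3a, which encodes the alpha subunit NaV1.3, the type prominent in the embryonic brain, was highest in Ddit4l-only cells. There it was at 128, 72.8, 100.7 and 80.05 CPM in retinas 1la, 1Ra, 2la and 2Ra. Sox6-only cells had 47.7, 23.8, 21.6 and 12.8 CPM, and Vsx1-only cells 32.2, 1.35, 22.9 and 35.1 CPM. The lowest Ddit4l-only retina lay above the highest of both other groups, which overlapped with each other.

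The fold of Scn3a in Ddit4l-only cells was 3.43 over Sox6-only cells (log2 fold change of Sox6-only over Ddit4l-only -1.78 ± 0.52, SE) and 3.99 over Vsx1-only cells (-1.99 ± 0.52). Neither passed in edgeR on mouse sums, with adjusted p = 0.541 and 0.275 and unadjusted p = 0.0227 and 0.0153. DESeq2 called both, with adjusted p = 0.0166 and 0.00339. The adjusted p ran up to 0.862 and 0.544 over the alternatives, all with the same direction. Scn3a was detected in 45 of 59 Ddit4l-only cells, or 76.3% (63.4% to 86.4%), in 35.8% (28.1% to 43.96%) of Sox6-only and in 25% (14.7% to 37.9%) of Vsx1-only cells, and at 200000 counts per cell in 67.8%, 28.5% and 16.7%. Where detected, its median was 22.2 TPM in Ddit4l-only, 5.42 in Sox6-only and 6.20 in Vsx1-only cells. Of the 30 Ddit4l-only cells with Hcn3, 25 also had Scn3a.

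Scn8a encodes NaV1.6, the main alpha subunit of mature nodes of Ranvier and axon initial segments. Sox6-only cells had 61.1, 74.8, 88.8 and 47.6 CPM in the 4 retinas, Vsx1-only cells 29.01, 94.5, 134 and 37.7 CPM, and Ddit4l-only cells 70.9, 34.6, 51.8 and 37.5 CPM. All groups overlapped, and the Vsx1-only retinas spanned the widest range. It was detected in 78.8% (71.4% to 85.03%) of Sox6-only, 90% (79.5% to 96.2%) of Vsx1-only and 74.6% (61.6% to 85.02%) of Ddit4l-only cells. The log2 fold changes were -0.07 ± 0.34 for Sox6-only over Vsx1-only, 0.48 ± 0.34 for Sox6-only over Ddit4l-only and 0.55 ± 0.34 for Vsx1-only over Ddit4l-only cells, with adjusted p = 1.00, 0.782 and 0.583 (edgeR). These p-values do not show that the groups have the same level.

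Scn2a, listed in the tables under its older symbol Scn2a1, encodes NaV1.2, an alpha subunit of unmyelinated axons and young axon initial segments. Its levels were 32.4, 15.9, 31.1 and 13.5 CPM in Sox6-only cells, 4.93, 22.8, 32.3 and 10.03 CPM in Vsx1-only cells and 68.5, 15.1, 42.6 and 6.70 CPM in Ddit4l-only cells. The groups overlapped throughout, and the widest contrast lay between retinas. In both Sox6-only and Ddit4l-only cells the la retina of each mouse was above the Ra retina, so that 5 of 6 pairs of group and mouse had the higher value in la. The same count was 5 for Scn3a and Scn2b, 4 for Hcn2, Hcn4, Scn1a and Scn8a and 1 for Hcn3, and 17.7% of all genes tested reached at least 5. The la retinas also had lower mitochondrial shares and, in each mouse, higher median totals, whose part in these counts was not tested. The log2 fold changes of Scn2a were 0.56 ± 0.53, -0.48 ± 0.53 and -1.05 ± 0.54 in the order of comparisons above, none of which passed (adjusted p = 0.895, 0.893 and 0.508, edgeR).

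Scn1a encodes NaV1.1, an alpha subunit known from fast-spiking interneurons. It was low in all groups, at 1.22, 1.98, 8.08 and 3.85 CPM in Sox6-only, 6.32, 1.88, 1.65 and 0.557 CPM in Vsx1-only and 4.47, 11.03, 3.62 and 3.26 CPM in Ddit4l-only cells, with overlap throughout. Even so, it was detected in 45.03%, 45% and 59.3% of the cells, more often than Scn3a in the first 2 groups. Most of these detections were small: 90 of the 130 cells with Scn1a in the 3 groups had at most 5 counts, against 26 of 114 cells for Scn3a and 32 of 115 for Scn2a. Of those 90 estimates, 60 were not whole numbers (to within 0.011). The same held for 42 of 58 such small estimates of Scn2b, 29 of 52 of Scn8a, 11 of 32 of Scn2a, 8 of 26 of Scn3a and none of the 32 of Hcn2, Hcn3 and Hcn4 together. Scn1a was detected in 93 of 166 cells that also had Scn2a or Scn3a, or 56.02% (48.1% to 63.7%), and in 37 of 104 cells with neither, or 35.6% (26.4% to 45.6%). More than 5 counts of Scn1a were found in 34 and 6 of these cells. The 3 groups are mixed here, and only 7 Ddit4l-only cells had neither gene. By group the 2 shares were 55% and 33.8% in Sox6-only cells and 50% and 38.5% in Vsx1-only cells. In Ddit4l-only cells they were 61.5% and 42.9%, and the intervals overlapped within every group. The part of shared reads in this was not tested. At 200000 counts per cell Scn1a was detected in 23.8%, 18.3% and 33.9% of Sox6-only, Vsx1-only and Ddit4l-only cells. The log2 fold changes were 0.74 ± 1.46, -0.33 ± 1.40 and -1.07 ± 1.29, with adjusted p = 0.977, 0.988 and 0.808 (edgeR).

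**Figure D3:**
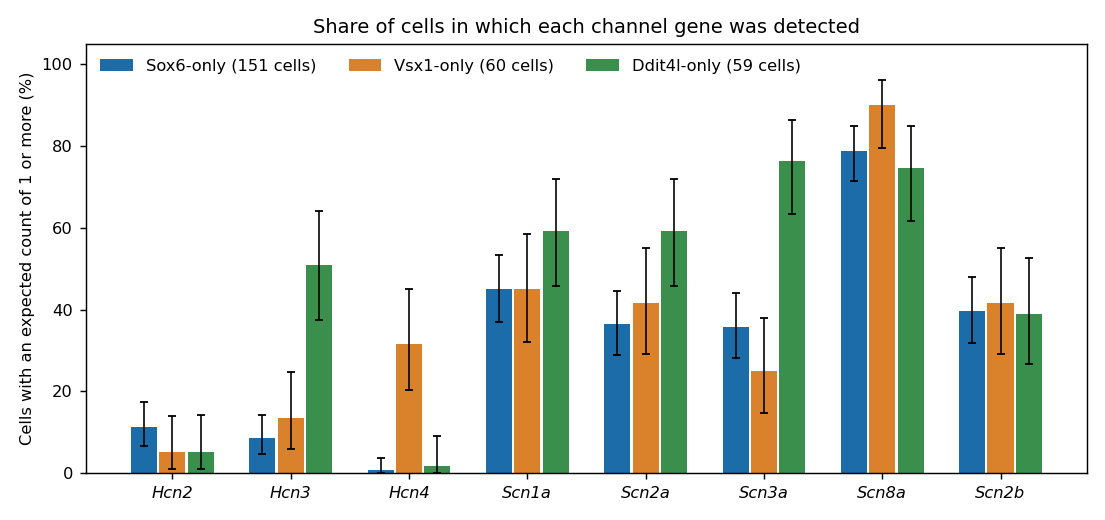
Share of cells (vertical axis, percent) with an expected count of 1 or more of each channel gene in the 3 marker groups (bars), with 95% Clopper-Pearson intervals that cover counting error only. Hcn3 and Scn3a were detected in 50.8% and 76.3% of Ddit4l-only cells and Hcn4 in 31.7% of Vsx1-only cells. The cells of each group came from 2 mice, so the intervals do not test a difference between groups.

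Scn2b encodes the beta-2 subunit, which is linked to the alpha subunit by a disulfide bond. Its levels were 15.6, 11.9, 12.6 and 4.35 CPM in Sox6-only, 13.8, 9.90, 7.68 and 7.56 CPM in Vsx1-only and 50.4, 11.4, 17.1 and 31.2 CPM in Ddit4l-only cells. Retina 1Ra of the Ddit4l-only group overlapped with the other groups, and the other 3 retinas of that group lay above all of them. The log2 fold change was -1.12 ± 0.55 for Sox6-only and -1.37 ± 0.56 for Vsx1-only over Ddit4l-only cells, and neither passed (adjusted p = 0.690 and 0.420, edgeR). For Sox6-only over Vsx1-only cells it was 0.25 ± 0.55 (adjusted p = 0.984, edgeR). It was detected in like shares of cells, 39.7%, 41.7% and 38.98%, and as with Scn1a many detections were small, with at most 5 counts in 58 of 108 cells.

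Since TPM is scaled for gene length, levels of the genes were set against each other within a group by TPM. TPM and CPM did not scale alike between genes or groups. In Ddit4l-only cells Scn1a was at 6.35 TPM and 5.82 CPM, and Scn2a at 9.64 TPM and 35.4 CPM. Scn8a was at 32.99 TPM in Vsx1-only and 20.4 in Sox6-only cells, but at 73.9 and 69.1 CPM. What lay behind this was not tested. Reads that may be shared between Scn1a, Scn2a and Scn3a limit their order as well. In Sox6-only cells Scn8a was first at 20.4 ± 2.92 TPM (mean ± SD, n = 2 mice), above the next gene in both mice. Scn3a followed at 7.43 ± 2.78, Scn2a at 5.67 ± 0.376, Scn2b at 4.42 ± 1.27, Hcn3 at 3.50 ± 3.66, Scn1a at 3.29 ± 1.07, Hcn2 at 1.43 ± 0.14 and Hcn4 at 0.00200 ± 0.00300. Of these neighbours, Scn2b and Hcn3, and Hcn3 and Scn1a did not keep their order in both mice. Scn3a was above Scn2a in both mice, but only slightly so in mouse 2. Scn8a was also first in Vsx1-only cells, at 32.99 ± 4.54 TPM, and above the next gene in both mice. After it came Scn3a at 7.13 ± 2.87, Scn2a at 6.10 ± 5.29, Scn2b at 4.97 ± 2.46, Hcn4 at 4.77 ± 1.19, Hcn3 at 2.38 ± 2.72, Scn1a at 1.37 ± 0.455 and Hcn2 at 0.767 ± 1.07 TPM, and no neighbours among these kept their order in both mice.

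Ddit4l-only cells had another order. Hcn3 was first at 30.98 ± 3.52 TPM and Scn3a second at 24.1 ± 5.78, ahead of Scn8a at 15.3 ± 0.145, Scn2a at 9.64 ± 0.733, Scn2b at 9.33 ± 0.128, Scn1a at 6.35 ± 2.19, Hcn4 at 0.726 ± 1.03 and Hcn2 at 0.0960 ± 0.136 TPM. All neighbours except Scn2a and Scn2b, and Hcn4 and Hcn2, kept this order in both mice, but the first 3 did not keep it by retina. In retinas 1la, 1Ra, 2la and 2Ra of the Ddit4l-only cells Hcn3 was at 18.3, 33.8, 25.1 and 50.1 TPM, Scn3a at 29.9, 14.9, 32.8 and 19.1 and Scn8a at 31.3, 6.79, 13.4 and 19.6 TPM. Hcn3 was thus below Scn3a in both la retinas, and Scn8a was slightly above Scn3a in 1la and 2Ra. Among the 4 alpha genes, Scn8a made up 55.4% of the summed TPM in Sox6-only, 70.1% in Vsx1-only and 27.6% in Ddit4l-only cells, and Scn3a 19.6%, 14.8% and 43.6%. These shares carry the same limits of TPM and of shared reads as the orders.

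**Figure D4:**
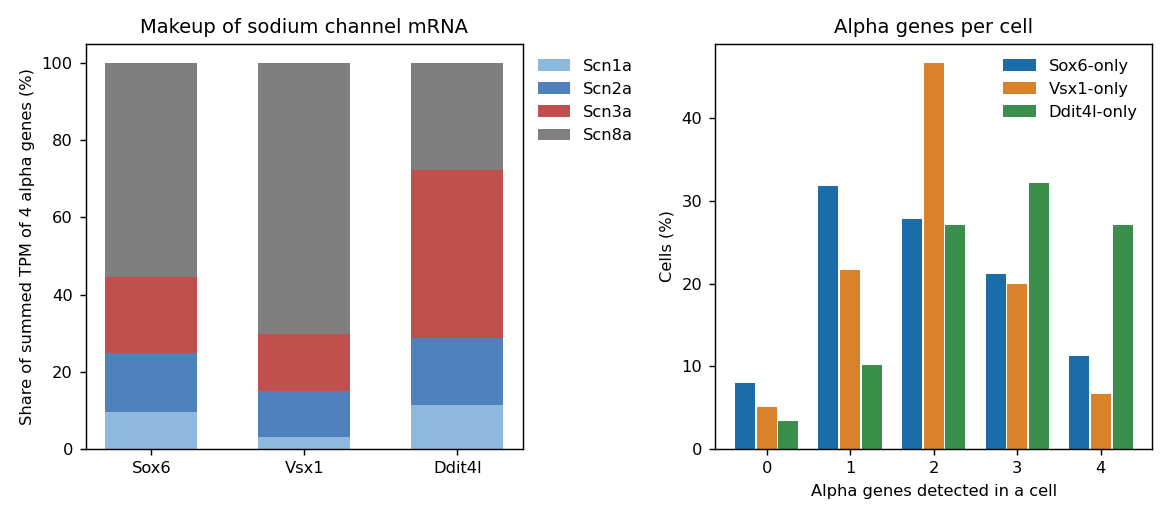
Left, share of the summed TPM of the 4 sodium channel alpha genes (stacked bars, percent) by marker group. Right, percent of cells (vertical axis) by how many of the 4 were detected in a cell (horizontal axis), where 32.2% of Ddit4l-only cells had 3 and 27.1% had all 4.

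Single cells often held several alpha genes. The mean number detected per cell was 1.96 in Sox6-only, 2.02 in Vsx1-only and 2.69 in Ddit4l-only cells. None was detected in 12, 3 and 2 cells and all 4 in 17, 4 and 16 cells of these groups. Scn3a and Scn8a were found together in 34 of 59 Ddit4l-only cells, with 11 holding Scn3a alone and 10 Scn8a alone of this pair. In Sox6-only cells 46 held both, 8 Scn3a alone and 73 Scn8a alone, and in Vsx1-only cells 12, 3 and 42. Scn1a enters these numbers with its many small estimates.

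Other sodium channel genes and the partner lists of both families gave 2 calls, both in sums per retina. Of 9 further sodium channel genes, 6 were tested in mouse sums and 3 in sums per retina, and none was called in any comparison. Of 6 genes whose products bind or regulate HCN channels, 5 were tested and none was called by either sum. The sodium channel partner list of 11 genes also held a sodium leak channel and its partners, which are not partners of the voltage-gated channels. All 11 were tested, none was called in mouse sums and 2 were called in sums per retina, both between Sox6-only and Vsx1-only cells. Over all genes tested, that comparison called 117 (0.806%) of 14508 in sums per retina and 0 (0%) of 16646 in mouse sums. The shares in the other comparisons were 0.551% and 2.3% in sums per retina and 0% and 0.0421% in mouse sums. The median log2 fold changes of the HCN partners and of the sodium channel partners in mouse sums were 0.57 and -0.21 for Sox6-only over Vsx1-only cells, 0.62 and 0.33 for Sox6-only over Ddit4l-only and 0.98 and 0.62 for Vsx1-only over Ddit4l-only cells, beside 0.05, 0.08 and 0.01 over all genes tested in these comparisons. For the further sodium channel genes no median is given, since several were at or near 0 counts.

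Ank3, which encodes ankyrin-G, the scaffold that holds sodium channels at the axon initial segment, was at 654, 668, 764 and 448 CPM in Vsx1-only cells. In Sox6-only cells it was at 304, 171, 234 and 184 CPM, below all of these. The log2 fold change of Sox6-only over Vsx1-only cells was -1.501 ± 0.178 in sums per retina (adjusted p = 0.00757, edgeR) and -1.44 ± 0.15 in mouse sums (adjusted p = 0.156). Fgf13, which encodes an intracellular fibroblast growth factor homologue that binds the tail of sodium channel alpha subunits, went the other way. It was at 126, 198, 141 and 291 CPM in Sox6-only and 21.1, 18.9, 56.6 and 17.3 CPM in Vsx1-only cells, without overlap. Its log2 fold change was 2.85 ± 0.48 in sums per retina (adjusted p = 0.0346, edgeR) and 2.63 ± 0.39 in mouse sums (adjusted p = 0.251). The 4 retinas came from 2 mice and are not independent animals. Sums per retina thus overstate the replication behind the calls of Ank3 and Fgf13, and neither gene was called in mouse sums. Fgf11, of the same family of growth factor homologues, was among the most abundant of these genes, at 76.95 TPM in Sox6-only, 25.1 in Vsx1-only and 38.9 in Ddit4l-only cells, and was not called.

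The genes most like each member across the 12 sums of retina and marker group were ranked by Pearson's r of log2(CPM + 1) over 7113 genes with a mean of at least 20 CPM. Only 4 members reached that mean themselves. For Hcn3 the nearest were Igsf3 (r = 0.85), Gtf2e2 (0.84) and Nsg2 (0.84), for Scn2a Skiv2l (0.96), Cln8 (0.92) and Gpr107 (0.90), for Scn3a Scfd2 (0.94), Hadha (0.93) and Kcna6 (0.91), and for Scn8a Pcbp3 (0.82) and Mkl1 (0.81) were among the nearest. These are the highest of many values, the points share retinas and groups, and no p is given.

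The 33 cells with none of the 3 markers also held channel transcripts, and the values there are descriptive since these cells are no group of the labels. Scn8a was detected in 28 of them, at 13.4 ± 4.66 TPM (SD, n = 2 mice), and Scn2b in 15, at 13.4 ± 3.37 TPM. Hcn3 stood at 14.97 ± 15.4 TPM, with 72.4% of its counts from a single cell. In the 18 cells with several markers Scn8a was detected in 16, at 18.3 ± 1.47 TPM, and Hcn4 in 2.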

How the data were processed

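Per the labels, fluorescent cells were sorted into plates and read single-end by Smart-seq2. The submitters' processing notes name mm10 as the assembly and list RSEM 1.2.28 and TopHat2 2.0.10, and the annotation is not given in the sources used here. For each cell the authors deposited expected counts from RSEM, which carry no normalisation, and TPM, scaled for gene length and to a fixed total. Totals of kept cells ran from 203657 to 1945582 expected counts. The mouse is the replicate (n = 2); 1 labelled cell was not analysed here.

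Cells were grouped by the 20 TPM marker rule. No doublet caller was run, and the 18 cells with several markers entered no test. No pair of cells correlated above 0.77. Expected counts were rounded, summed per mouse and group and tested with edgeR 4.0.16 (R 4.3.3, TMM, filterByExpr, all 3 groups in 1 fit, Benjamini-Hochberg adjustment over all genes tested), with the mouse as a block because every group came from the same 2 animals. Deviations of the mouse sums correlated at only 0.04 to 0.10 between groups. CPM use TMM-scaled totals, except in counts of la against Ra retinas, which use plain totals. Alternatives were DESeq2 1.42.0, limma 3.58.1, sums per retina, other filters and thresholds, and each retina left out. Named genes were the 8 members, partner genes called by either sum or among the 4 most abundant, and the 3 most alike genes per member. Members and lists were chosen with earlier results of these data known. Sequences, gene positions and overlaps are from GENCODE (GRCm38, the assembly of mm10), which may differ from the annotation the authors used. Some further results are left out.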

Additional observations from a re-analysis of the deposited data

Results flagged for a closer look

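In 4 of 24 sets of 4 retinas (8 genes in 3 groups), 1 retina lay far from the other 3 by Dixon's criterion. Chance meets it in about 1 of 20 sets of normally distributed values, a rate that need not hold for low counts such as these. Hcn2 was at 4.43 CPM in Vsx1-only cells of retina 2la, nearly all of it from 1 cell. Hcn4 was at 0.0239 CPM in Sox6-only cells of retina 1la, which is a single count, and at 6.32 CPM in Ddit4l-only cells of retina 2la, which is a single cell. In both of these sets the other 3 retinas were at 0, where any count at all meets the criterion. Scn1a was at 11.03 CPM in Ddit4l-only cells of retina 1Ra.

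For 3 genes both retinas of mouse 1 differed between groups in the direction opposite to both retinas of mouse 2. The difference between the mice was not tested. In sums per mouse, the difference of log2(CPM + 1) between Sox6-only and Vsx1-only cells was 2.93 in mouse 1 and -1.93 in mouse 2 for Hcn3, and 0.97 and -0.59 for Scn3a. Between Sox6-only and Ddit4l-only cells it was -1.87 and 0.70 for Scn1a.

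The 62 wells with fewer than 3000 genes entered no comparison, and the 5 sodium channel genes each had more than 3 counts in them, while Hcn3 and Hcn4 had 3 each and Hcn2 had 0. Scn1a was at 62.5 CPM in their sum, with 99.4% from 1 well of retina 1Ra that had 3 of 10 ganglion cell markers. Scn8a was at 61.9 CPM, with 87.2% from 1 well of retina 1Ra with 0 of these markers. Scn2b was at 20.98 CPM, with 98.2% from 1 well of retina 1la with 2 of them. Scn3a was at 4.57 and Scn2a at 0.380 CPM.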

How the results depend on the processing

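Counts of genes called are given in the order Sox6-only against Vsx1-only, Sox6-only against Ddit4l-only and Vsx1-only against Ddit4l-only cells, and were 0, 0 and 7 as reported. With no replicate block they were 16, 2 and 62, with retina sums and a replicate block of retinas 117, 80 and 333, with DESeq2 852, 760 and 1613, with limma on log2(TPM + 1) 66, 24 and 231 and on log2(TPM + 0.1) 22, 9 and 101. In the first comparison 3 were called without a filter on low counts and 1 at a marker threshold of 50 TPM. In the third, 4 were called at that threshold, 4 at 5000 genes per cell, 0 without rod-rich cells (summed rod markers of 1000 TPM or more) and 0 (without 1la or 1Ra) to 11 (without 2la) with 1 retina left out. DESeq2 called 1, 2 and 2 of the 8 channel genes beside 852, 760 and 1613 of 16646 genes tested, and no other alternative called any of the 8.

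Of 378 log2 fold changes of channel genes under alternatives, 15 changed sign, none of them past the threshold; the cause was not tested. With 1 retina left out, the lowest and highest were -0.26 and 1.09 for Scn2a, -0.196 and 1.205 for Scn3a, -0.36 and 0.30 for Scn8a and -0.20 and 0.48 for Scn2b (Sox6-only over Vsx1-only), -9.00 and 1.77 for Hcn4 and -0.85 and 0.12 for Scn2a (Sox6-only over Ddit4l-only), and -1.93 and 0.0703 for Scn2a, -0.12 and 1.21 for Scn8a and -1.01 and 3.38 for Hcn2 (Vsx1-only over Ddit4l-only). For Sox6-only over Vsx1-only cells, Scn8a was at 0.0014 in sums per retina, Scn3a at -0.038 with a marker threshold of 10 TPM, and Scn2b at -0.093 and -0.101 with limma. Hcn2 had too low a TPM for the limma fits. Detection shares moved beyond their interval in 17 of 48 cases.

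Low counts limit Hcn2, Hcn4 and Scn1a.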
